A study of Mus musculus with 8 samples.

Results

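The genes described here are the nuclear-encoded subunits of the mitochondrial respiratory chain and ATP synthase, complexes I to V, in cells sorted as vascular smooth muscle from ascending aortas of mice. They were chosen by symbol: protein-coding genes whose names start with Ndufa, Ndufb, Ndufc, Ndufs, Ndufv, Uqcr, Cox4 to Cox8 or Atp5, and Sdha to Sdhd, with pseudogenes left out. The same prefixes also bring in assembly factors (Ndufaf, Sdhaf) and Atp5s, which were kept as a group of their own. In all, 93 of the 11447 gene identifiers in the tables were members: 36 of complex I, 4 of complex II, 8 of complex III, 16 of complex IV, 16 of complex V and 13 assembly and other factors. Ndufa4 and Ndufa4l2 were counted with complex IV, of which NDUFA4 is a subunit. Cox6a2, Cox7b2, Cox8b and Cox8c, which the annotation holds, were in none of the 6 tables and were not analysed.

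GFP-positive cells had been sorted from digested ascending aorta as smooth muscle cells and profiled by droplet single-cell RNA sequencing. One genotype was Apoe-/- (called Apoe). The other, labelled TGFBetaRiSMC-Apoe, was also Apoe-deficient and carried a smooth muscle deletion of Tgfbr2, the type II TGF-beta receptor (called KO), so all mice of both groups lacked Apoe. Each genotype was sampled on the diet labelled ND and after 1, 2 or 4 months of high fat diet (HFD; 1M, 2M and 4M), with 1 library for each of the 8 combinations. The Cre driver, the age of the mice and the number of animals per library are not given in the sources used, so p-values measure only the spread between libraries around the fitted model.

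Complex I oxidises NADH, complex II oxidises succinate, complex III passes electrons to cytochrome c, complex IV reduces oxygen, and complex V makes ATP from the proton gradient. Most subunits are encoded in the nucleus and a few, all in complexes I, III, IV and V, in the mitochondrial genome. Contractile smooth muscle uses ATP for actomyosin cycling and ion pumping, and several complex IV subunits have alternative isoforms that are tied to tissue or oxygen supply, among them COX4I2 and NDUFA4L2.

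The libraries held between 1127 (KO ND) and 2659 (Apoe 2M) cells and between 9407669 (Apoe 4M) and 19720109 (Apoe 2M) unique molecular identifiers (UMIs, 1 per captured molecule), with a median of 6966 (Apoe 4M) to 10988 (KO 4M) UMIs per cell. Of the 93 members, 89 had values in all 8 libraries. A gene seen in under 5% of a library's cells is listed at 0 in that library, which need not mean low expression. Many of these genes have pseudogene copies elsewhere in the genome, and the sources used here do not say how reads matching several places were counted. The 4 smooth muscle markers (Acta2, Myh11, Tagln and Cnn1) summed to 15626 to 26232 UMIs per 1000000 (CPM) in the Apoe libraries and to at most 31288 CPM in the KO libraries, but to 988 CPM in KO 4M, so the defining markers of the sorted cell type were far lower there, though still listed. In the same library the fibroblast list stood at its highest sum, 11917 CPM (5 of 6 genes listed in some library), carried by Dcn (7820 CPM) and Lum (4051 CPM), with Pdgfra at 16.9 CPM and Pi16 listed at 0. Pecam1, the 1 listed gene of the 5 in the endothelial list, was listed at 0 in KO 4M. The 10 macrophage markers (6 listed) summed to 0 in every Apoe library and to at most 375 CPM in the KO libraries. By a count of at least 3 markers of another cell type, KO 1M held 20 such cells, KO 4M 3 and the other libraries 0. The endothelial and Schwann lists had 1 listed gene each and the lymphocyte list 0, so no cell could reach 3 there. With macrophage genes also at 0 in Apoe, the Apoe counts of 0 do not show that such cells were absent. Fibroblast genes did not enter this count, and the share of fibroblasts was not tested. Leaving these cells out, a setting tried below, thus removed none from the Apoe libraries. Tgfbr2 had been taken out of every table that holds KO cells, so its deletion was not checked here. At most 9 cell barcodes were shared by any 2 libraries.

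The summed subunit transcripts of all 5 complexes were higher in KO than in Apoe on ND, 1M and 2M, and lower at 4M. Complex I subunits summed to 6528, 6647, 6589 and 6641 CPM in the Apoe libraries (ND, 1M, 2M and 4M, the order used throughout) and to 7617, 7213, 7728 and 4191 CPM in the KO libraries. The Apoe values were nearly level over the 4 diets, and KO 4M was the one library far below the rest. Complex II summed to 458, 448, 462 and 426 CPM in Apoe and to 488, 484, 544 and 312 CPM in KO. Complex III summed to 2282, 2270.2, 2245 and 2292 CPM in Apoe and to 2675, 2508, 2629 and 1775 CPM in KO. Both showed the same order of libraries at 4M, with KO below Apoe. Complex IV summed to 6365, 6423, 6613 and 6037 CPM in Apoe and to 7584, 7143, 7845 and 4947 CPM in KO, and complex V to 4884, 4936, 5052 and 4851 CPM in Apoe and to 5568, 5246, 5624 and 3898 CPM in KO.

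**Figure D1:**
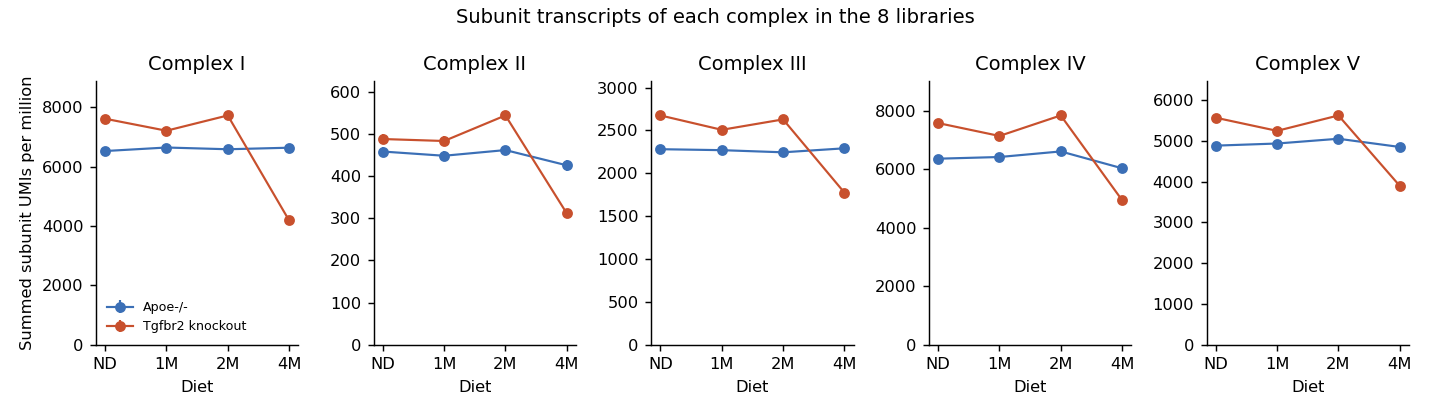
Summed CPM of the subunits of each complex (y axis, from 0) on the 4 diets (x axis) in Apoe-/- (blue) and Tgfbr2 knockout (red) libraries; bars are exact Poisson 95% intervals, mostly smaller than the points, and lines only join libraries of a genotype. In each panel the knockout point is above the Apoe-/- point on ND, 1M and 2M and below it at 4M, where complex I stands at 4191 against 6641.

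The ratio of KO to Apoe at 4M was smallest for complex I. It was 0.631 for complex I, 0.732 for complex II, 0.774 for complex III, 0.819 for complex IV and 0.804 for complex V, and 0.974 for the assembly and other factors. On ND, 1M and 2M the ratio over the 5 complexes lay between 1.06 and 1.19. With 1 library per genotype and diet these ratios have no replicate check, and Poisson intervals cover counting error only. Cox4i2 alone carried part of the complex IV sum in KO 4M: without it the complex IV ratio at 4M was 0.712 and the ratio over all subunits moved from 0.747 to 0.715. These sums are shares of all UMIs of a library. KO 4M held 276765 subunit UMIs among 18301826 in 1577 cells, and Apoe 4M 190472 among 9407669 in 1235 cells. The lower share in KO 4M is thus a share of a larger total and does not show fewer subunit UMIs per cell. In such sums a change in the mix of cells and a change within cells cannot be told apart. The median cell of KO 4M carried subunit UMIs at 14521 CPM (10th to 90th percentile 10986 to 19496), and that of Apoe 4M at 21041 (11522 to 27577).

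Of the 90 members whose mean share of cells with a UMI was at least 5%, none passed the test for a genotype effect over the 4 diets (limma, Benjamini-Hochberg adjusted p under 0.05 over 9253 genes), against 0.0216% of all genes called higher and 0.13% called lower. Unadjusted p was under 0.05 for 18 members and 1298 of all genes. The effects, differences of mean log2 values, were above 0 for 81 of 90 members with a median of 0.07, beside 0.01 over all genes, but on the log2(CPM + 1) scale only 50 of 90 were above 0. In complex I the ends were Ndufb3 (-0.11 ± 0.03, SE) and Ndufb5 (0.16 ± 0.04), both accessory subunits of the membrane arm. In complex II they were Sdhc (0.04 ± 0.09) and Sdhd (0.07 ± 0.03), the membrane anchors, and in complex III Uqcrb (0.05 ± 0.10) and Uqcrq (0.24 ± 0.07), small subunits of the complex. Complex IV ran from Cox7a2 (0.01 ± 0.07) to Cox4i2 (0.60 ± 0.41), and complex V from Atp5g3 (-0.03 ± 0.03) to Atp5g1 (0.23 ± 0.15), which encode the same mature c subunit of the rotor. Among the factors the ends were Ndufaf6 (0.00 ± 0.01) and Ndufaf4 (0.09 ± 0.08).

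The 4M pair went against the other 3 pairs, and the effect on those 3 diets was read from a fit with its own term for KO at 4M. There, 5 members were higher in KO and 0 lower, beside 0.973% of all genes called higher and 1.62% called lower. Cox6c, a small subunit of complex IV, stood at 848, 885 and 901 CPM in Apoe against 1078, 1126 and 1125 in KO on ND, 1M and 2M, without overlap, and its mean log2 value was 0.32 ± 0.03 higher in KO (adjusted p = 0.0456). Uqcrfs1, the Rieske iron-sulfur protein of complex III, was 0.15 ± 0.01 higher (adjusted p = 0.0348). Atp5b, the catalytic beta subunit of ATP synthase, was 0.16 ± 0.02 higher (adjusted p = 0.0490). Cox6b2, known as the testis isoform of COX6B, was 0.10 ± 0.01 higher (adjusted p = 0.0487), at 13.2, 7.31 and a listing at 0 in Apoe and 25.5, 21.2 and 17.2 CPM in KO, so its value rests partly on that listing. Over all 90 members 85 effects were above 0, with a median of 0.12 beside 0.00 over all genes. None of the 5 passed on the log2(CPM + 1) scale (0.13% of all genes called higher), where 83 of 90 effects were above 0 with a median of 0.18 beside -0.01, nor when any 1 of the 3 diets was left out.

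The question whether loss of Tgfbr2 acts differently at 4M was put as the genotype difference at 4M minus that on the other 3 diets. This comparison was chosen because earlier results of these same data had shown the 4M pair apart. Its p-values are therefore not those of a question set beforehand. By this test 22 of 90 members were lower (24.4%, beside 9.86% of all genes called lower) and 7 were higher (7.78%, beside 20.4% called higher). On the log2(CPM + 1) scale, which takes each library as 1 sum, the split was 43 lower (47.8%, beside 27.2% of all genes) and 2 higher (2.22%, beside 9.85%). With contractile, cartilage and matrix UMIs out of the total it was 40 lower and 2 higher, beside 24.9% and 11.2% of all genes. The log2(CPM + 1) scale moved the median difference of all genes from 0.02 to -0.29, and the members' median from -0.11 to -0.60. In this fit the 4M pair is matched exactly, so its error comes from the spread of the other 3 diets and each 4M library is assumed to vary like them. The 4M pair also differed most in depth per cell (medians of 6966 and 10988 UMIs), and the part of depth in these calls was not tested. Without the ND libraries 11 members were lower and 3 higher, beside 4.45% and 9.99% of all genes. Without 1M the counts were 23 and 2, beside 5.87% and 11.7%, and without 2M they were 6 and 3, beside 4.09% and 11.6%. The 3 members called in the same direction under all 10 alternatives tried were Cox6c and Sdhc (lower) and Ndufaf4 (higher).

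In KO 4M, 68 of the 89 members listed in all libraries (76.4%) had their lowest level of the 8 libraries, beside 48.8% of all tested genes listed in all 8. By complex these were 32 of 36 in complex I, 3 of 4 in complex II, 6 of 8 in complex III, 10 of 13 in complex IV, 12 of 16 in complex V and 5 of 12 factors. At 4M, 40 of 90 members were lower in KO by at least 0.5 in log2(CPM + 1) (beside 35.9% of all genes listed in both libraries) and 11 by at least 1 (beside 17.3%), while 4 were higher by at least 0.5 (beside 16.9%). On ND, 1M and 2M no member was lower by 0.5 (beside 9.36%, 5.08% and 13.9%), and 5, 3 and 4 were higher by that much (beside 4.72%, 4.06% and 6.82%). Cox4i2, Atp5g1, Ndufaf4, Sdhaf2 and Sdhaf4 were the 5 members with their highest level in KO 4M, where 23.4% of all tested genes listed in all 8 had theirs.

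**Figure D2:**
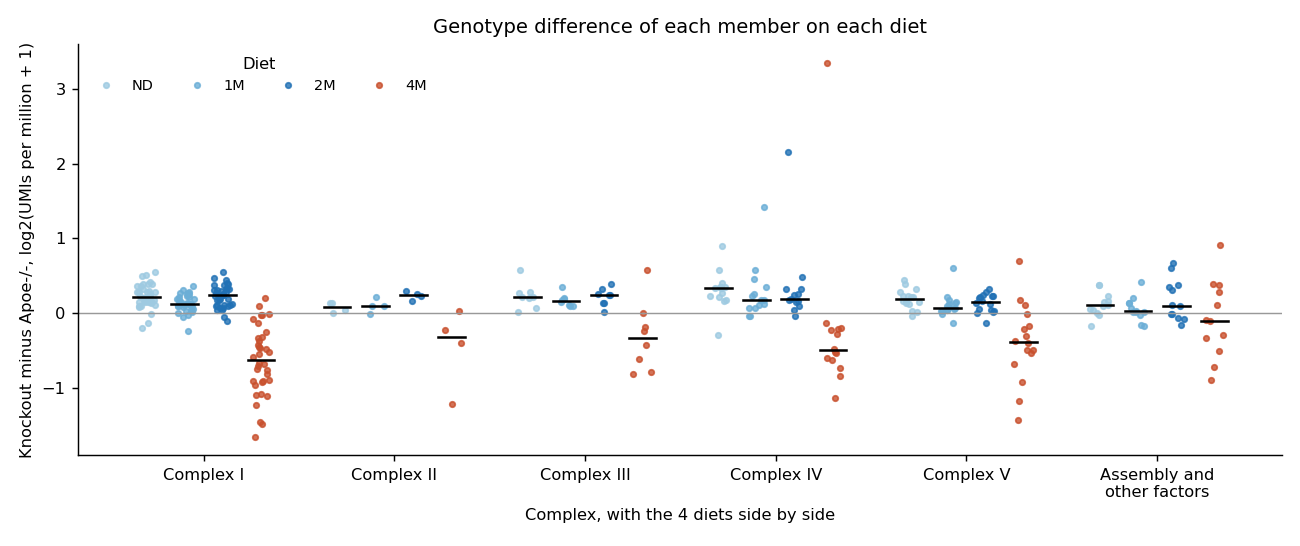
Difference between knockout and Apoe-/- in log2(CPM + 1) (y axis) for each tested member listed in both libraries, by complex (x axis) and diet (colour); black bars are medians. At 4M (red) the complex I median is -0.63 while the medians on the other diets are above 0 in each complex, and the highest red point is Cox4i2 at 3.36.

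Complex I held 15 of the 22 lower calls (41.7% of its 36 members, beside 9.86% of all genes) and none of the higher ones. Ndufv3, an accessory subunit of the flavoprotein module that takes electrons from NADH, stood at 315, 318, 284 and 328 CPM in Apoe against 354, 362, 374 and 103 in KO. Ndufv3 was seen in 59.7% of KO 4M cells against 82.1% in Apoe 4M (57.3 to 62.2 and 79.9 to 84.2, exact binomial 95% intervals). These intervals cover the sampling of cells within each library and not the spread between libraries. With every cell thinned to 2900 UMIs the Ndufv3 shares were 23.0% in KO 4M and 58.0% in Apoe 4M. The genotype difference of Ndufv3 was 0.96 ± 0.10 lower at 4M in mean log2 value (effect -0.96, adjusted p = 0.0123). Ndufa3, a small accessory subunit, stood at 254, 259.8, 231 and 274 CPM in Apoe against 364, 314, 287 and 98.4 in KO (effect -0.88 ± 0.14, adjusted p = 0.0251). For both genes KO was above its Apoe partner on ND, 1M and 2M and below every other library at 4M. Without ND the Ndufv3 call was lost (adjusted p = 0.0532), and without 2M the Ndufa3 call (adjusted p = 0.0849).

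The promoters of these 2 genes and of 2 genes that were higher in the same test are shown because members at both ends of the 4M comparison can then be read against motifs known from promoters of mitochondrial genes. Each runs from 250 bases before to 30 after the RefSeq start site, 5′ to 3′ on the gene's strand (RefSeq, build GRCm38.p6), with capitals for matches on either strand to GCATGCGC (NRF-1), CCGGAAG (ETS factors such as GABP), AAGATGGC (YY1) or ACGTG (the core of the hypoxia response element, also part of the E-box CACGTG). Ndufv3 lies at chr17:31519865-31520144 (plus strand), Ndufa3 at chr7:3617123-3617402 (plus strand), Atp5g1 at chr11:96075602-96075881 (minus strand) and Ndufaf4 at chr4:24897833-24898112 (plus strand).
Ndufv3: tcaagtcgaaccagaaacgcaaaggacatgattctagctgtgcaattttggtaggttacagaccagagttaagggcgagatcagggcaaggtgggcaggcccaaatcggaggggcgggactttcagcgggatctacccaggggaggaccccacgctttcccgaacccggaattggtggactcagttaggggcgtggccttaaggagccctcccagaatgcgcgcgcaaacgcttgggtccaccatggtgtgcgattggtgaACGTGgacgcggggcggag
Ndufa3: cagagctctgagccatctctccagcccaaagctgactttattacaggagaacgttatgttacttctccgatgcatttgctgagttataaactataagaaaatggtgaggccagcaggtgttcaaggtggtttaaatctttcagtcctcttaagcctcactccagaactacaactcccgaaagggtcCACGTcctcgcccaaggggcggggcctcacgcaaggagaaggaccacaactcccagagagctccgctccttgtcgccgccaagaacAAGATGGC
Atp5g1: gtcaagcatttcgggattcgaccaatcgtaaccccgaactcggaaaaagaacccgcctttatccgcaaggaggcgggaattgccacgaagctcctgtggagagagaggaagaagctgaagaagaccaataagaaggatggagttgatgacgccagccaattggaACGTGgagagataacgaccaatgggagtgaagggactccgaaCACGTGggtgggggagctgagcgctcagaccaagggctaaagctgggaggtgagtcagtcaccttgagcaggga
Ndufaf4: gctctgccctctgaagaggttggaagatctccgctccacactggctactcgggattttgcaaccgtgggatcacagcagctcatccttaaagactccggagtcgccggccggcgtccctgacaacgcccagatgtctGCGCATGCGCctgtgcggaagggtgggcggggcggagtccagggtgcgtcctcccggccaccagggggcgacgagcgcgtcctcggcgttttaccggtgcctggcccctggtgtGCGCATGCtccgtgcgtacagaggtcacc

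Ndufv3 held 1 ACGTG, after the start site, and Ndufa3 held AAGATGGC after the start site and ACGTG on the other strand before it. Atp5g1 held ACGTG at positions -86 and -43 from the start site, the second as the E-box CACGTG, and Ndufaf4 held GCATGCGC in a palindrome at -113 and again at 2. Of the 93 members 76 matched a RefSeq window, and 17, among them Cox4i1, Cox4i2, Cox6c, Sdhc, Uqcrb and Uqcrc2, did not. Over the full windows of 300 bases, GCATGCGC was found in 12 of the 76 members (15.8%), beside 3.05% of 27025 genes. CCGGAAG was found in 21 members (27.6%, beside 9.93%), AAGATGGC in 10 (13.2%, beside 3.19%) and ACGTG in 17 (22.4%, beside 21.8%). These are matches of letters in a window and show no binding.

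The other lower calls of complex I lay across its modules. Ndufa11, in the membrane arm, stood at 296, 294, 362 and 321 CPM in Apoe against 388, 343, 470.1 and 172 in KO (effect -0.59 ± 0.12, adjusted p = 0.0415). Ndufb7, Ndufb9 and Ndufb8, accessory subunits of the distal membrane arm, had effects of -0.51 ± 0.09 (adjusted p = 0.0328), -0.49 ± 0.10 (adjusted p = 0.0419) and -0.49 ± 0.10 (adjusted p = 0.0408). Ndufs7, a core subunit that carries the last iron-sulfur cluster before ubiquinone, stood at 174, 181, 175 and 199 CPM in Apoe against 185, 193, 215 and 93.2 in KO (effect -0.45 ± 0.08, adjusted p = 0.0319). In all of these KO 4M was the lowest of the 8 libraries.

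Of the 7 nuclear-encoded core subunits of complex I, most of which bind its redox centres, 4 were lower by the test, and of the 29 accessory subunits 11 were. Ndufv1, which binds NADH, stood at 92.7, 84.3, 93.3 and 86.6 CPM in Apoe against 99.9, 101, 111 and 53.5 in KO (effect -0.18 ± 0.03, adjusted p = 0.0249). Ndufs1, the largest core subunit, stood at 59.9, 56.8, 58.9 and 49.3 CPM in Apoe against 54.6, 68.0, 60.6 and 46.8 in KO and did not pass. The median difference at 4M in log2(CPM + 1) was -0.47 for core subunits (-1.08 to 0.09) and -0.71 for accessory subunits (-1.66 to 0.20). These ranges overlap and the difference between the 2 groups was not tested. Within complex I the 4 subunits whose KO 4M level was not the lowest of the 8 were Ndufb5, Ndufc2, Ndufs3 and Ndufs4.

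In complex II only Sdhc was called, 1 of 4 members, beside 9.86% of all genes called lower. SDHC anchors the dehydrogenase in the inner membrane. Sdhc stood at 147, 148, 144 and 116 CPM in Apoe against 161, 172, 172 and 49.3 in KO (effect -0.41 ± 0.03, adjusted p = 0.00848). The catalytic flavoprotein gene Sdha stood at 117, 112, 112 and 122 CPM in Apoe and 119, 119, 137 and 92.5 CPM in KO, and the iron-sulfur subunit gene Sdhb at 134, 131, 140.1 and 123 CPM and 146, 130.2, 157 and 105 CPM. Both were lowest in KO 4M without passing the test. Sdhd, the other anchor, stood at 63.7 CPM in Apoe 4M and 65.2 in KO 4M.

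Complex III had 2 higher and 2 lower calls among 8 members, beside 20.4% of all genes called higher and 9.86% lower. Uqcrb, a ubiquinone-binding subunit, stood at 514, 509, 366 and 507 CPM in Apoe against 596, 564, 401 and 288 in KO (effect -0.45 ± 0.09, adjusted p = 0.0390), and Uqcrfs1 at 111, 97.7, 113 and 96.2 CPM in Apoe and 129, 124, 135 and 71.3 CPM in KO (effect -0.17 ± 0.02, adjusted p = 0.0191). The 2 higher calls did not come from high levels in KO 4M. Uqcrc2, a core subunit, stood at 54.1, 52.2, 43.0 and 31.1 CPM in Apoe against 56.7, 59.6, 43.2 and 47.0 in KO, so the library that stood apart was Apoe 4M, the lowest of the 8 (effect 0.18 ± 0.02, adjusted p = 0.0196). Uqcrh, the hinge subunit, stood at 535, 505, 572 and 557 CPM in Apoe against 540.1, 537, 630.1 and 558 in KO. Its effect of 0.26 ± 0.05 (adjusted p = 0.0428) turned to -0.08 on the log2(CPM + 1) scale. Uqcrc1, the partner of Uqcrc2 in the core, stood at 155 CPM in Apoe 4M and 101 in KO 4M and did not pass.

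Complex IV held the member with the largest effect in either direction, Cox4i2, and the lower calls Cox6c and Cox6b2. These were 1 higher and 2 lower calls among 14 tested members, beside 20.4% of all genes called higher and 9.86% lower. Cox6c stood at 848, 885, 901 and 848 CPM in Apoe against 1078, 1126, 1125 and 474 in KO: above every Apoe library on 3 diets and below all of them at 4M (effect -0.73 ± 0.06, adjusted p = 0.00848, with adjusted p from 0.00565 to 0.0458 over the 10 alternatives). Cox6b2, at 8.31 CPM in KO 4M against 12.3 in Apoe 4M, had an effect of -0.10 ± 0.02 (adjusted p = 0.0434) that passed in 3 of 9 alternatives. The mitochondrially encoded catalytic core of complex IV is surrounded by these nuclear subunits. Other abundant members, Cox6a1 (622 CPM in Apoe 4M, 372 in KO 4M), Cox8a (654 and 421), Cox7a2 (451 and 296) and Ndufa4 (437 and 299.6), were lowest in KO 4M and did not pass this test.

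COX4 is the subunit through which ATP inhibits complex IV, and COX4I2 is its isoform of lung and of low oxygen. Cox4i2 (chr2:152754173-152765037, GRCm38, plus strand) stood at 25.1, 18.1, 16.8 and 66.9 CPM in Apoe against 33.6, 27.5, 78.8 and 694 in KO. KO 4M was far above every other library, and KO 2M and Apoe 4M stood above the remaining 5. The genotype difference was 1.92 ± 0.07 higher at 4M (adjusted p = 0.00228). On the log2(CPM + 1) scale it was 2.31 ± 0.84 and did not pass (adjusted p = 0.110). On that scale KO exceeded Apoe by 0.41 on ND, 0.58 on 1M, 2.16 on 2M and 3.36 on 4M. The 3 libraries with the highest Cox4i2 were also the highest in Dcn, a matrix proteoglycan gene. Dcn stood at 7820 CPM in KO 4M, 2451 in Apoe 4M and 2098 in KO 2M against 29.1 to 265 in the others. It is a single gene, counted in both the fibroblast and the matrix list, and does not by itself mark fibroblasts. The part of differences in cell types in the Cox4i2 result was not tested. Cox4i1 (chr8:120668222-120674207, plus strand), the common isoform, stood at 1041, 1027, 1064 and 929 CPM in Apoe against 1175, 1103, 1274 and 664 in KO.

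Cox4i2 made up 2.35%, 1.73%, 1.56% and 6.71% of the UMIs of the Cox4i1 and Cox4i2 pair in Apoe and 2.78%, 2.43%, 5.83% and 51.1% in KO (50.5% to 51.7% in KO 4M, exact binomial 95% interval). UMIs count captured molecules and were not divided by transcript length. The 2 isoforms together stood at 1066, 1045, 1081 and 996 CPM in Apoe against 1209, 1130.3, 1353 and 1359 in KO, so the sum of the pair in KO 4M was not below that in KO 2M. A Cox4i2 UMI was seen in 84.3% of KO 4M cells and in 10.1% to 26.2% of cells of the other libraries. With every cell thinned to 2900 UMIs the shares were 62.6% in KO 4M, 10.96% in KO 2M, 9.31% in Apoe 4M and 3.72% to 8.78% in the others, while Cox4i1 was seen in 82.6% of KO 4M cells and in 90.8% to 96.1% elsewhere. No cell type known to lack Cox4i2 was set apart among these sorted cells, so a share due to free RNA cannot be given.

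Ndufa4l2, a hypoxia-linked relative of Ndufa4, had values in KO 4M alone, at 36.3 CPM and in 17.3% of cells (6.98% after thinning), and made up 10.8% of the UMIs of the Ndufa4 and Ndufa4l2 pair there. In the other 7 libraries Ndufa4l2 is listed at 0, so it was not tested and no fold is given. Cox7a1, the muscle isoform of COX7A, had a value in KO ND alone (6.16 CPM), while Cox7a2 and its relative Cox7a2l were listed in all 8 libraries. Cox7a2l made up 49.1% of the UMIs of that pair in KO 4M (48.1% to 50.1%, exact binomial 95% interval) and 31.4% to 42.5% in the other libraries, with Cox7a2 at its lowest level of the 8 (296 CPM) and Cox7a2l at 285 CPM. Cox6b2 made up 2.17% of the Cox6b1 and Cox6b2 pair in KO 4M and between 1.76% and 4.84% in the other libraries that list it. These shares have no replicate check, and differences between the pairs were not tested.

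**Figure D3:**
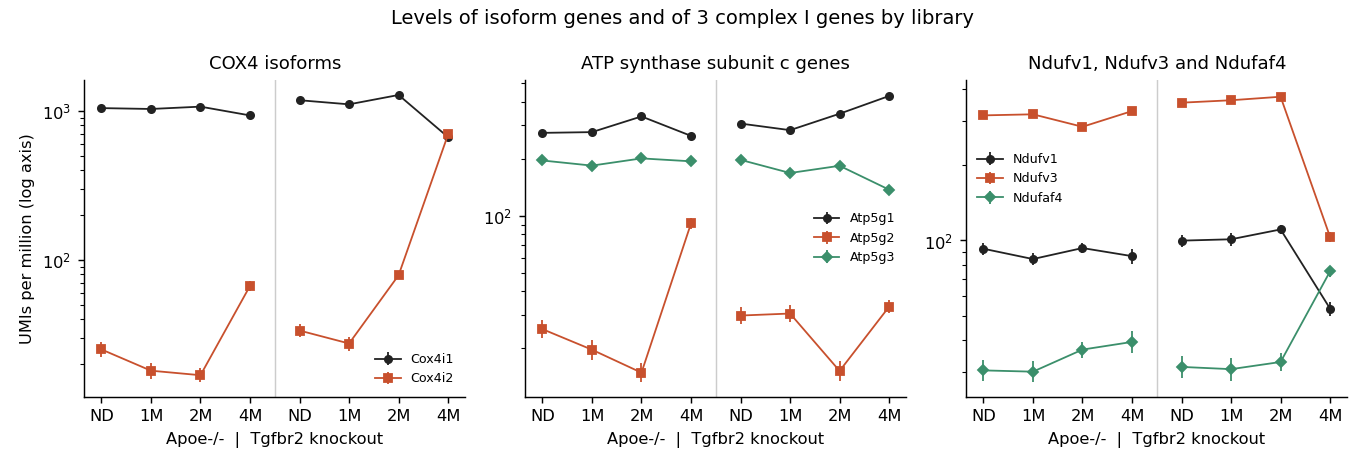
CPM (log axis) of the COX4 isoforms, the 3 subunit c genes, and Ndufv1, Ndufv3 and Ndufaf4 in the 8 libraries (x axis, Apoe-/- left and knockout right of the grey line); bars are exact Poisson 95% intervals and lines only join libraries of a genotype. Cox4i2 reaches 694 in KO 4M, next to Cox4i1 at 664, and Atp5g2 is highest in Apoe 4M at 91.2.

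In complex V, Atp5g1 was higher and Atp5k and Atp5g2 were lower. These were 1 higher and 2 lower calls among 16 members, beside 20.4% of all genes called higher and 9.86% lower. Atp5g1, Atp5g2 and Atp5g3 encode the same c subunit of the proton-driven rotor with different import sequences. Atp5g1 stood at 274, 276, 334 and 264 CPM in Apoe against 307, 283, 345 and 428 in KO, with KO 4M above all others (effect 0.71 ± 0.10, adjusted p = 0.0209). The call was lost without 1M or 2M, where the highest adjusted p was 0.0794. Atp5g1 made up 55.3%, 57.6%, 60.8% and 48.1% of the UMIs of the 3 genes in Apoe and 57.4%, 58.7%, 63.5% and 71.5% in KO. Atp5g3 stood at 194 CPM in Apoe 4M and 137 in KO 4M.

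The lower call of Atp5g2 (effect -0.32 ± 0.04, adjusted p = 0.0166) did not come from a low level in KO 4M. Atp5g2 stood at 25.3, 19.7, 14.9 and 91.2 CPM in Apoe against 29.8, 30.6, 15.2 and 33.2 in KO, so Apoe 4M was the library that stood apart. It was the single lower call listed in all 8 libraries whose lowest level was not in KO 4M (20 of 21 were). Along with Cox5a and Cox4i2, Atp5g2 was more than 1.5 times higher in Apoe 4M than in each of the other Apoe libraries. Cox5a, which sits beside COX4 in complex IV, stood at 41.4, 35.3, 31.3 and 87.6 CPM in Apoe against 62.0, 48.8, 30.5 and 39.3 in KO.

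Atp5k, subunit e of the membrane part, stood at 274, 293, 284 and 339 CPM in Apoe against 344, 309.8, 310.0 and 149 in KO (effect -0.63 ± 0.12, adjusted p = 0.0393). The catalytic pair did not pass: Atp5a1 stood at 431, 419, 431 and 368 CPM in Apoe against 419, 417, 434 and 317 in KO, and Atp5b at 608, 593, 651 and 503 CPM in Apoe against 669, 673, 715 and 497 in KO. For Atp5b the 2 genotypes were thus close at 4M, where both stood below their own values on the other diets.

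The assembly and other factors had 3 higher calls among 12 tested and no lower one, beside 20.4% of all genes called higher and 9.86% lower. Ndufaf4, an assembly factor of complex I, stood at 30.4, 30.02, 36.8 and 39.4 CPM in Apoe against 31.4, 30.7, 32.8 and 75.4 in KO (effect 0.36 ± 0.03, adjusted p = 0.00762). It was seen in 16.6% of KO 4M cells thinned to 2900 UMIs and in 7.84% to 9.80% of cells elsewhere. Sdhaf2, which attaches FAD to SDHA, stood at 23.8 CPM in Apoe 4M and 31.6 in KO 4M (effect 0.10 ± 0.02, adjusted p = 0.0479). Sdhaf4, an assembly factor of complex II, stood at 34.4 and 45.0 CPM (effect 0.13 ± 0.03, adjusted p = 0.0486). Sdhaf4 passed under none of the 10 alternatives and Sdhaf2 under 3.

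The 2M libraries stood apart for some genes, members or not. Levels in both 2M libraries were below those of the other 5 apart from KO 4M for 9 of 90 members (10.0%, beside 7.95% of all tested genes) and above them for 7 (7.78%, beside 6.53%), shares near the background in both directions. The 9 low members were Atp5g2, Cox5a, Ndufb8, Ndufb2, Ndufb4, Uqcrb, Atp5l, Ndufs5 and Atp5mpl. The ratio of 2M to those 5 libraries ran from 0.383 (Atp5g2) to 0.776 (Atp5mpl). Of the 22 lower calls at 4M 5 are among these 9, and the other 81 members hold 17 lower and 7 higher calls. The part of this difference between libraries in the calls was not tested beyond leaving out 2M, given above.

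Over months of diet, taken as a slope common to both genotypes, 9 of 90 members fell and none rose, beside 5.4% of all genes called lower and 0.151% called higher. Months of diet cannot be told apart from the age of the mice, which is not given, or from differences between single libraries. The same holds for the slopes within each genotype. Cox7c, a small complex IV subunit, fell by 0.10 ± 0.01 per month (adjusted p = 0.0312) and Atp5d, the delta subunit of the ATP synthase stalk, by 0.09 ± 0.02 (adjusted p = 0.0386). Cox7c stood at 790.1, 795, 753 and 657 CPM in Apoe against 917, 829, 857 and 569 in KO. The others were Atp5b, Ndufa7, Atp5a1, Ndufv2, Cox7b, Uqcrfs1 and Ndufb11, with slopes of -0.08 to -0.04. None passed on the log2(CPM + 1) scale (0.0% of all genes called lower), with rank of time, or without the libraries of any 1 diet, and 4 were called without KO 4M. The ends of the slopes in complex I were Ndufa3 (-0.15 ± 0.05) and Ndufa10 (-0.01 ± 0.01), in complex II Sdhc (-0.12 ± 0.03) and Sdhd (0.01 ± 0.01), and in complex III Uqcrb (-0.12 ± 0.05) and Uqcrh (0.02 ± 0.02). In complex IV they were Cox6a1 (-0.17 ± 0.04) and Cox4i2 (0.28 ± 0.13), in complex V Atp5mpl (-0.10 ± 0.04) and Atp5g2 (0.06 ± 0.03), and among the factors Ndufaf3 (-0.03 ± 0.01) and Ndufaf4 (0.05 ± 0.03).

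Within KO 36 members fell with months and 1, Cox4i2, rose (0.54 ± 0.13 per month, adjusted p = 0.0406), beside 15.7% of all genes called lower and 6.8% called higher. The largest falls were Ndufa3 (-0.27 ± 0.03, adjusted p = 0.0133), Ndufv3 (-0.26 ± 0.06, adjusted p = 0.0367), Cox6a1 (-0.25 ± 0.04, adjusted p = 0.0228), Cox6c (-0.24 ± 0.04, adjusted p = 0.0277) and Ndufa4 (-0.21 ± 0.03, adjusted p = 0.0241). Atp5mpl, Sdhc, Ndufb7, Uqcr11 and Ndufc1 followed with slopes of -0.18 to -0.17. By complex 19 of 36 members of complex I, 1 of 4 of complex II, 3 of 8 of complex III, 7 of 14 of complex IV, 5 of 16 of complex V and 1 of 12 factors fell. On the log2(CPM + 1) scale 17 fell (18.9%, beside 19.0% of all genes) and 2 rose (2.22%, beside 7.76%). On that scale members thus fell about as often as genes at large. Without KO 4M, ND or 1M no member and 0.0% of all genes were called in either direction, and without 2M 46 members were lower and 3 higher, beside 20.0% and 13.1% of all genes. Within Apoe no member was called (0.0% of all genes called), with 15 members and 1165 genes at an unadjusted p under 0.05. The difference of slopes between genotypes was called for no member either (0.0% of all genes), with 21 members and 1954 genes at an unadjusted p under 0.05, so a difference in course between genotypes was not shown by this test.

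Within each library the cells were split at the library's median share of UMIs in 15 contractile genes, and subunit levels were compared per 1000000 UMIs, leaving out contractile, cartilage and matrix genes. In 7 of the 8 libraries the more contractile cells carried more subunit UMIs, with ratios of 1.17 (KO ND) to 1.31 (Apoe 4M), and in KO 4M the ratio was 1.03. Between 73 of 77 (Apoe 2M) and 75 of 78 (Apoe ND, KO ND and KO 2M) subunits were higher in the more contractile cells outside KO 4M, where 57 of 78 were. The share of all genes that were higher in these cells was not computed. The counts therefore do not show a trait particular to the subunits. The contractile share of the 2 sets of cells was 4.48% and 1.72% in Apoe 4M but 0.133% and 0.0448% in KO 4M. The 2 sets had medians of 6952 and 6984 UMIs per cell in Apoe 4M and 10431 and 11662 in KO 4M. Cells of a library are not replicates, so these ratios have no test.

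**Figure D4:**
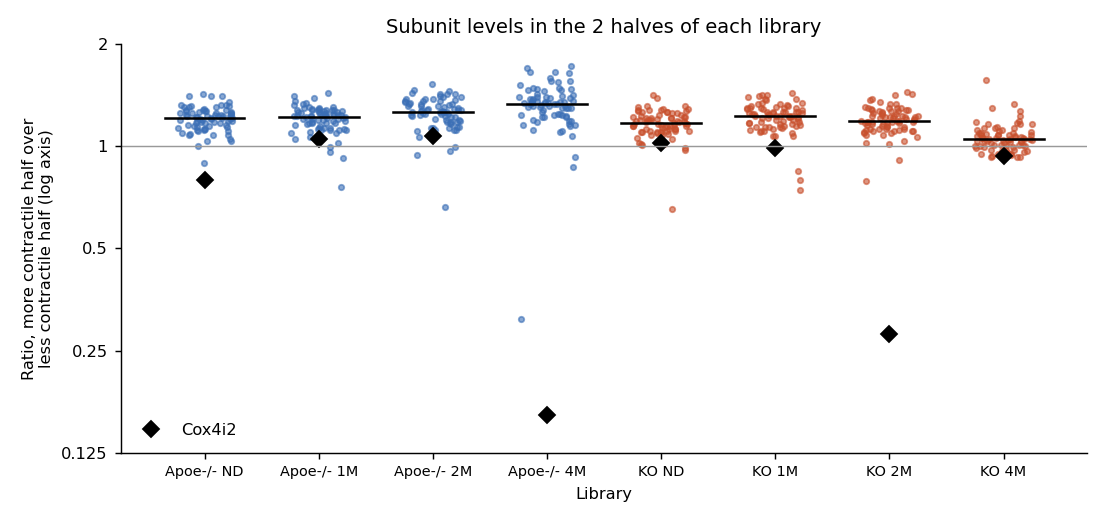
Ratio of subunit levels in the more contractile cells over the less contractile cells (log axis) in each library (x axis); each point is a tested subunit, bars are medians and black diamonds are Cox4i2. The medians run from 1.05 in KO 4M to 1.33 in Apoe 4M, and Cox4i2 stands at 0.162 in Apoe 4M and 0.28 in KO 2M.

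Cox4i2 went the other way in the 2 libraries where it stood above the rest, apart from KO 4M. In Apoe 4M it stood at 19.3 in the more contractile cells and 119 in the less contractile cells, a 6.18-fold difference. In KO 2M the values were 36.2 and 129, a 3.57-fold difference. In KO 4M, by contrast, Cox4i2 stood at 765 and 819, and in the remaining 5 libraries the ratio lay between 0.794 and 1.07. In the less contractile cells of Apoe 4M Cox6b2 (3.23-fold) and Ndufaf4 (1.79-fold) were also higher, with Atp5g1 at 305 against 264, while Ndufv3 (1.72), Sdhc (1.70) and Ndufa3 (1.66) had the highest ratios in favour of the more contractile cells. Of these genes Cox4i2, Atp5g1 and Ndufaf4 were also called higher and Ndufv3, Sdhc and Ndufa3 lower in the 4M genotype comparison, while Cox6b2 was called lower there. Both use the Apoe 4M library. The genes named are a selection, and the match over all called members or over all genes was not counted. The overlap is thus only a description of these genes.

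Other genes of oxidative metabolism were read from lists in the same test of the 4M genotype difference. Of all genes 20.4% were called higher and 9.86% lower in it, and 9.85% and 27.2% on the log2(CPM + 1) scale. The counts of the lists are to be read beside these shares, which the 3 and 8 lower cycle enzymes exceeded and the carrier counts did not. Of 13 tricarboxylic acid cycle enzymes, which feed electrons to the chain, 3 were lower (Suclg2, Sucla2 and Idh3a) and none higher, with a median of -0.13, and on the log2(CPM + 1) scale 8 were lower and none higher (median -0.78 beside -0.29 over all genes). Suclg2, a subunit of succinyl-CoA synthetase, stood at 89.3, 91.9, 83.2 and 69.1 CPM in Apoe against 97.0, 106, 107 and 34.6 in KO (effect -0.26, adjusted p = 0.0272). Cs, citrate synthase and the lowest of the list (-0.28, adjusted p = 0.0644), stood at 92.5, 98.8, 82.4 and 80.1 CPM in Apoe against 97.2, 87.4, 77.4 and 26.3 in KO, and Dld, shared by the 2-oxoacid dehydrogenases, was the highest (0.11, adjusted p = 0.0507). Of 8 carriers 1 was higher: Cycs, cytochrome c, stood at 143, 155, 156 and 124 CPM in Apoe against 167, 173, 145 and 204 in KO (effect 0.47, adjusted p = 0.0434), while Cyc1, the haem subunit of complex III outside the symbol rule, was the lowest (-0.12, adjusted p = 0.265). On the log2(CPM + 1) scale no carrier was higher and 2 were lower.

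Of 21 tested chain assembly genes outside the symbol rule, Cox14 (0.48, adjusted p = 0.0225) and Tmem70 were higher and Cox16 and Cox17 lower, with Coa3 the lowest (-0.23, adjusted p = 0.0528), while on the log2(CPM + 1) scale 4 were lower and none higher. Of 8 tested genes of mitochondrial biogenesis 3 were higher and none lower, but on the log2(CPM + 1) scale none was higher and 1 lower. Of the counts of these assembly and biogenesis genes, only the 3 higher biogenesis calls exceeded the all-gene shares given above. Tfam, which packages and transcribes mitochondrial DNA, stood at 26.4, 24.4, 30.2 and 23.2 CPM in Apoe against 19.8, 23.0, 24.0 and 31.1 in KO (effect 0.16, adjusted p = 0.0234), the coactivator Pprc1 was the highest (0.21, adjusted p = 0.0293), Tfb2m was the other, and Esrra was the lowest (-0.06, adjusted p = 0.190). Ppargc1a, the master coactivator of mitochondrial biogenesis, had values in KO ND, 1M and 2M alone (7.62, 11.7 and 7.12 CPM) and was not tested. Of 6 tested antioxidant genes none passed (Gpx4 lowest at -0.05, Txn2 highest at 0.14), and Sod2, the matrix superoxide dismutase, stood at 145, 145, 213 and 148 CPM in Apoe against 145, 150.1, 179 and 153 in KO. Of the hypoxia-linked and mitophagy list Cox4i2 alone was called, and Bnip3l was the lowest (-0.05, adjusted p = 0.651).

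The mitochondrial genome encodes the remaining subunits. Of its 10 genes in the tables mt-Nd3 was lower by the test (-1.57, adjusted p = 0.0384) and the others did not pass, with mt-Co3, listed in 3 libraries, the highest (1.49, adjusted p = 0.518). The complex I genes mt-Nd1 (5121 CPM in Apoe 4M, 2618 in KO 4M) and mt-Nd4 (3338 and 1675) stood lower in KO than in Apoe at 4M. On the log2(CPM + 1) scale the median of all 10 genes was -0.78 (-2.59 to 3.76), beside -0.29 over all genes. Lower levels were thus not shown to be particular to the complex I genes. For protein synthesis, 11 of 74 mitochondrial ribosomal genes were higher and 1 lower, and 57 of 87 cytosolic ribosomal genes were higher and 2 lower, with medians of 0.04 and 0.64. Of all genes 20.4% were called higher and 9.86% lower, so mitochondrial ribosomal genes were called less often than genes at large in both directions. Beside these, 13 of 14 contractile genes were lower (median -2.49, lowest Acta2 at -4.76, highest Des at -0.35), all 16 cartilage and bone genes were higher (median 2.70, Matn3 0.96 to Col2a1 4.95), and 6 of 15 matrix genes were higher and none lower (Eln -0.18 to Sparc 4.59). On the log2(CPM + 1) scale these counts were 2 higher and 12 lower of the 74, 12 higher and 5 lower of the 87, 14 lower of the 14, 7 higher of the 16, and 3 higher and 4 lower of the 15, so mitochondrial ribosomal and matrix genes had no single direction over both scales. Of the 10 mitochondrial-genome genes 4 were lower there. Of all genes 9.85% were called higher and 27.2% lower on that scale, and mitochondrial ribosomal genes were again below both shares. The part of these lists in the members' result was not tested beyond the ratios of levels without them: taking the 3 lists out of the total moved the ratio over all subunits at 4M from 0.747 to 0.788, and taking out the mitochondrial genome and cytosolic ribosome as well moved it to 0.816.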

How the data were processed

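Single-cell tables of 8 libraries (2 genotypes on 4 diets, 1 library each) were read. Per the file names, the authors deposited log2 values after TMM scaling, with Apoe and Tgfbr2 removed (Tgfbr2 remains in 1 table). Per the submitters' processing notes, UMI-tools, STAR and featureCounts (Subread 1.6.0) and build GRCm38 were used. Each library lies in 2 of the 6 tables with the same barcodes. With the log2 scale undone, each cell's values were whole multiples of its smallest positive value within 0.01 for 100.0% of entries. That smallest value was taken as 1 UMI, which gave back UMI counts, and sums per library were expressed as CPM. No doublet caller was run.

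Mean log2 values per library were tested with limma 3.58.1 (R 4.3.3) over 9253 genes whose share of cells with a UMI averaged at least 5%, with Benjamini-Hochberg adjustment. The terms were genotype with diet as a factor, slope per month, slope by genotype, and genotype with a separate term at 4M (residual degrees of freedom 3, 5, 4 and 2). Settings tried were log2(CPM + 1), a pseudocount of 10, other filters, the other table, and left-out cells or libraries. The script was tested on simulated data. Named members are those called (the 10 largest per direction), the ends of each complex, and fixed isoform sets and core subunits. Members, lists and the separate term at 4M were chosen with earlier results of these data known. One member that enters the counts is not reported by name here.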

Additional observations from a re-analysis of the deposited data

Results flagged for a closer look

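The genotype difference at 4M differed from that on ND, 1M and 2M for 29 members, by a test of the difference itself (limma, adjusted p under 0.05). Both libraries at 4M are single, so the error of each value comes from the other 3 diets. The comparison was chosen with earlier results of these data known. The values are differences of mean log2 levels for the 10 largest in each direction.

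The 7 higher members were Cox4i2 (1.92), Atp5g1 (0.71), Ndufaf4 (0.36), Uqcrh (0.26), Uqcrc2 (0.18), Sdhaf4 (0.13) and Sdhaf2 (0.10). Of these Uqcrh changed sign with the scale, Sdhaf4 passed under no alternative, and in Uqcrc2 the low library was Apoe 4M.

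Among the lower members, the complex I genes were Ndufv3 (-0.96), Ndufa3 (-0.88), Ndufa11 (-0.59), Ndufb7 (-0.51), Ndufb9 (-0.49), Ndufb8 (-0.49) and Ndufs7 (-0.45). The others were Cox6c (-0.73), Atp5k (-0.63) and Uqcrb (-0.45). In all 10 of these KO 4M was the lowest of the 8 libraries.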

How the results depend on the processing

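Calls depended on the scale and on single libraries, and with 1 library per genotype and diet no alternative adds a replicate. The genotype effect over 4 diets gave 0 higher calls, and 5 without the 4M libraries or without KO 4M. For the effect on ND, 1M and 2M, the 5 higher calls became 0 under log2(CPM + 1), without contractile, cartilage and matrix UMIs, with a pseudocount of 10, with no filter on low values, and without ND, 1M or 2M. For the difference at 4M, the 7 higher calls became 2 under log2(CPM + 1), 2 without those UMIs, 3 with a pseudocount of 10, 3 without ND, 2 without 1M and 3 without 2M. Its 22 lower calls became 43, 40 and 48 under the first 3 of these, 10 with no filter, 11 without ND and 6 without 2M. Uqcrh there reversed to -0.077, -0.0026 and -0.076 under the same 3. For the common slope, the 9 lower calls became 0 under log2(CPM + 1), without those UMIs, with a pseudocount of 10, with rank of time, and without ND, 1M, 2M or 4M, 4 without KO 4M and 32 with the other table. Within KO, the 1 rise became 2 under log2(CPM + 1), without those UMIs, with a pseudocount of 10 and with no filter, 3 without 2M, and 0 without ND, 1M, 4M or KO 4M. The 36 falls became 17 under log2(CPM + 1), 14 without those UMIs, and 0 without ND, 1M, 4M or KO 4M. The cause was not tested.

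The KO to Apoe ratio at 4M with those UMIs out of the total was 0.666 for complex I, 0.817 for III, 0.865 for IV, 0.848 for V and 0.788 for all subunits. With mitochondrial-genome and ribosomal UMIs also out it was 0.690 for I, 0.8003 for II, 0.846 for III, 0.895 for IV, 0.878 for V, 0.816 for all subunits and 1.06 for the factors. Of single-member values for the 4M difference across alternatives, 116 kept their call, 51 lost it and 3 reversed. A planned edgeR test was not run, because the deposited values are log2 values; recovered UMI sums were tested with limma instead. The alternatives for the 4M difference that leave out ND, 1M or 2M were chosen after seeing the data. The genotype tests already pair the 2 libraries of a diet through diet as a factor, and the labels number no other replicates.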
